A study of Mus musculus with 9 samples.

Results

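In AML12 cells, a mouse hepatocyte line, 57 genes were higher with free fatty acids than in untreated cells and lower again once sinomenine, a plant alkaloid, was added to the fatty acids. They came from a table of 30350 genes, of which 11659 had a mean of at least 1 FPKM (fragments scaled to transcript length and to library depth) over the 9 libraries. The genes were chosen by their measured values. Every fatty acid library had to lie above every untreated and every sinomenine library. The mean log2(FPKM + 1) with fatty acids also had to be at least 0.25 higher than in either other group. By these conditions fatty acids were above untreated cells for 630 genes (5.4% of those tested) and above sinomenine for 709 (6.08%). The 57 genes that met both were 0.489% of the tested genes, 9.05% of the 630 and 8.04% of the 709. Because both differences chose the genes, they are given below as a description, with no test. The difference between sinomenine-treated and untreated cells was not itself a condition of the choice and was tested. The choice used the same values and bounds it, however: a gene can lie above untreated cells by at most its fatty acid difference less 0.25, and below them by at most its sinomenine difference less 0.25. The p-values of that comparison describe the chosen genes within these bounds and are not independent of the choice.

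Hepatocytes given fatty acids take them up, activate them to acyl-CoA, and either store them as triglyceride or oxidise them. PPAR alpha, a nuclear receptor that binds fatty acids, turns on genes of their uptake and oxidation, while SREBP factors drive sterol and fatty acid synthesis. Hepatocytes also carry enzymes that oxidise and conjugate drugs and retinoids, among them the Cyp1a enzymes, which are induced through the aryl hydrocarbon receptor.

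The study sequenced 3 groups of 3 libraries. NC cells received the medium DMEM/F12 alone, FFA cells the medium with free fatty acids, and FFA_SIN cells the medium with free fatty acids and sinomenine. The series describes confluent cells given fatty acids for 24 hours and then fatty acids with 200 µM sinomenine for 48 hours. All groups share the same cell line, an immortalised line that carries a transforming growth factor alpha transgene. The fatty acids used and the culture times of NC and FFA are not stated, so fatty acid treatment and culture time cannot be told apart in FFA against NC, nor sinomenine and culture time in FFA_SIN against FFA. No label says that the replicates come from separate cultures, so the p-values rest on a spread between libraries that may be only technical.

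The steps of the FPKM values implied a depth of 58862500 to 64460000 reads per NC library, 43201300 to 67706500 per FFA library and 57912300 to 71386500 per FFA_SIN library. The 6 hepatocyte markers examined were all present, with summed FPKM of 1232 to 1253 in NC, 1727 to 1731 in FFA and 2373 to 2396 in FFA_SIN. Biliary markers were also high, mainly Krt19, with sums of 1842 to 1915, 1752 to 1773 and 1555 to 1574, while the biliary marker Epcam was between 0 and 0.00638 FPKM in all libraries. Stellate markers summed to 9.93 to 10.2, 5.71 to 6.67 and 3.23 to 3.36, nearly all of it Des, and only 1 of the 5 reached a mean of 1 FPKM. Endothelial markers summed to at most 0.388 FPKM and adipocyte markers to at most 0.563, and the 3 macrophage markers in the table summed to 1.89 to 2.74. Such sums are carried by the most abundant marker. Gene by gene, 3 of the 6 hepatocyte markers rose and 1 fell in FFA against NC, and 3 rose and 2 fell in FFA_SIN against FFA. Of the 4 biliary markers tested, 1 rose and 2 fell in FFA, and 2 rose and 2 fell with sinomenine. Among all tested genes, 19.1% rose and 18.4% fell in FFA against NC. In FFA_SIN against FFA, 13.9% rose and 17.3% fell. With so few markers these counts are a description only. The hepatocyte sum was highest and the biliary and stellate sums lowest in FFA_SIN. Their part in the results was not tested. In bulk RNA, fewer cells of a type and less RNA per cell cannot be told apart.

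**Figure D1:**
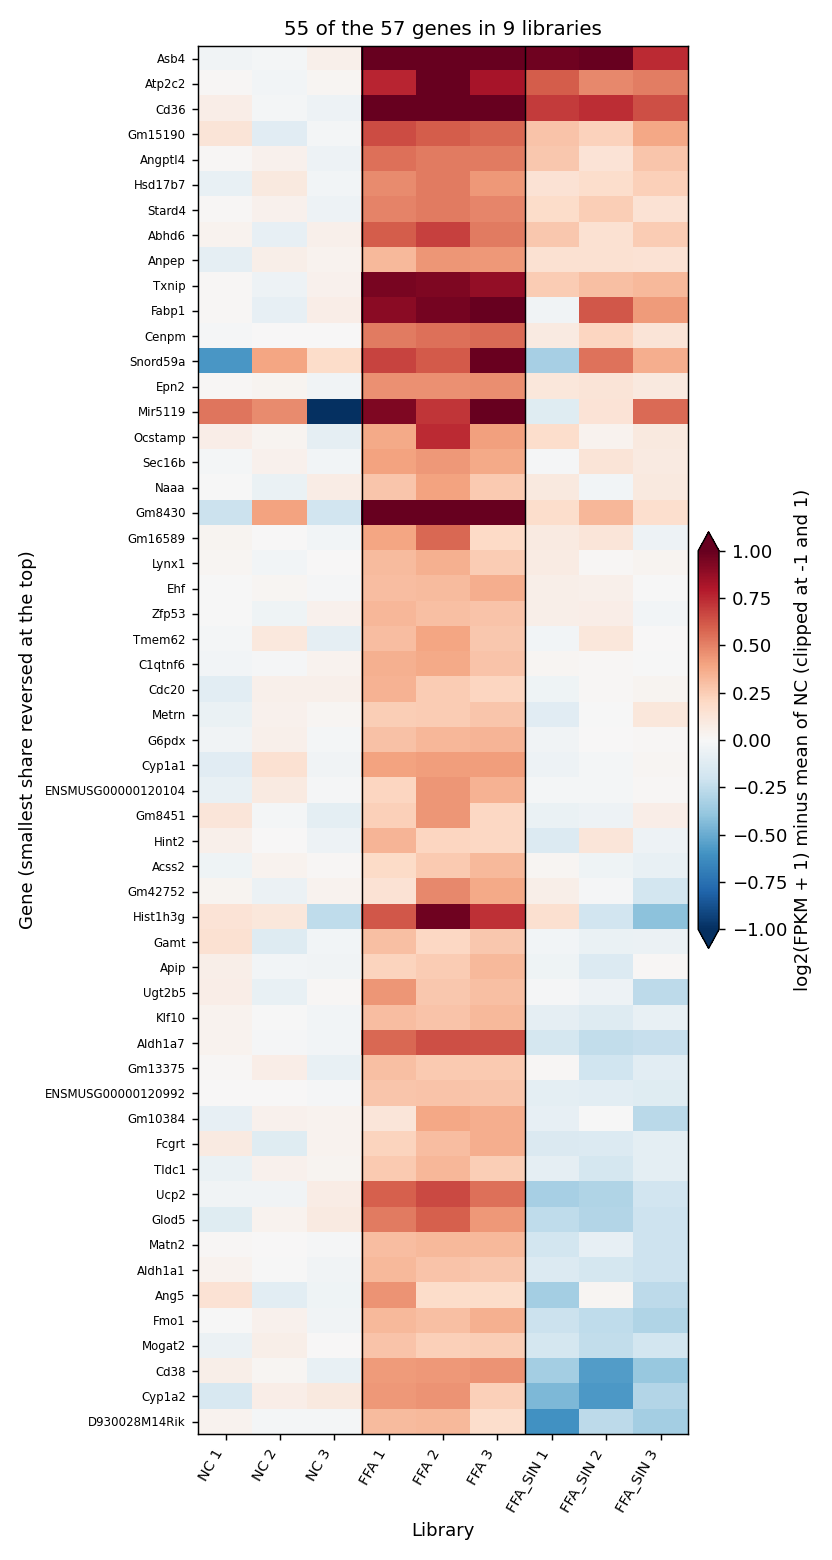
Heat map of 55 of the 57 genes (rows, ordered by the share of the FFA difference that was reversed) in the 9 libraries (columns). Colour is log2(FPKM + 1) minus the mean of the 3 NC libraries of that gene, cut at -1 and 1. All rows are red in FFA because they were chosen so, and in FFA_SIN the colour goes from red for genes at the top, such as Asb4 and Cd36, to blue for genes at the bottom, such as Cyp1a2.

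Most of the 57 differences were small. The median gene was 0.34 higher in FFA than in NC and 0.39 higher in FFA than in FFA_SIN in log2(FPKM + 1), a scale on which differences of low genes come out too small. Both differences were under 0.5 for 34 genes and at least 0.5 for 10. In mean FPKM, 9 genes were at least 2-fold higher in FFA than in NC, and 8 were at least 2-fold higher in FFA than in FFA_SIN. Levels in FFA reached 5 FPKM for 33 genes and stayed under it for 24. For 5 genes, Fabp1, Cyp1a1, Ocstamp, Hist1h3g and Gm42752, the means of NC and FFA_SIN were both under 1 FPKM. They therefore passed the filter only through FFA, and they are named here after their values were seen. Asb4 had means of 0.244 FPKM in NC and 1.39 in FFA_SIN. Its NC and FFA_SIN libraries together averaged under 1 FPKM, so Asb4 too passed the filter only through FFA. Of the 51 genes whose read counts could be inferred, 10 had under 100 reads in some library.

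The genes nearest to the threshold differed little on either side. The members with the smallest values of the smaller difference were Anpep (0.251), Hint2 (0.254), Naaa (0.258), Gamt (0.258) and Acss2 (0.258). Just outside lay Kcnh6 (0.247), Hao1 (0.247), Csdc2 (0.245), Nlrp6 (0.245) and Ankle1 (0.245). In all, 23 members had a smaller difference below 0.3, while 38 further genes without overlapping libraries lay between 0.2 and 0.25. Another 36 genes met the size of both differences, but their libraries overlapped.

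**Figure D2:**
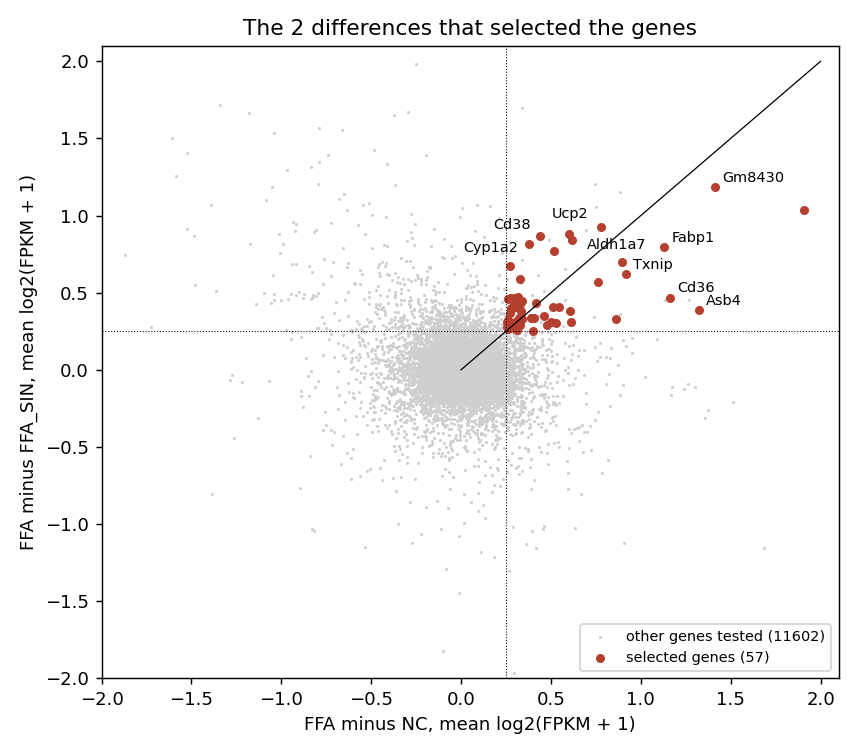
FFA minus NC (x axis) against FFA minus FFA_SIN (y axis) in mean log2(FPKM + 1), for the 57 chosen genes (red) and the other 11602 tested genes (grey), with 8 genes outside the axes. Dotted lines mark the 0.25 of the choice and the solid line equal differences: Cd36 and Asb4 lie under the line, while Ucp2, Cd38 and Cyp1a2 lie over it.

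The share reversed, FFA minus FFA_SIN divided by FFA minus NC, had a median of 1.03 and ran from 0.29 for Asb4 to 2.48 for the noncoding gene D930028M14Rik. It was under 0.5 for 3 genes, 0.5 to 1 for 24 and over 1 for 30, that is, below the NC level. Tested with limma, 13 of the 57 genes lay above NC in FFA_SIN, 13 lay below and 31 did not pass the test. Over all tested genes, 24.7% were above NC and 26.5% below in the same comparison, so the 13 and 13 of 57 were near the share of all genes. The median log2 difference of FFA_SIN from NC was -0.01 for the 57 genes and -0.01 for all tested genes. The 31 genes that missed the threshold are not thereby shown to have returned to the NC level. Where FFA minus NC was near 0.25, the choice left almost no room above NC. Grouped by role, 6 of 11 genes of lipid metabolism stayed above NC, whereas 4 of 6 genes of drug and retinoid metabolism went below NC and none stayed above it. The median share reversed was 0.63 in the former and 1.47 in the latter. These groups were formed after the members were known. The choice also sets a lowest possible share, 0.25 divided by FFA minus NC, which is higher for genes with small differences. The median of FFA minus NC was 0.53 in the lipid group and 0.36 in the drug and retinoid group, so the contrast between them is set in part by the choice and is a description only.

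**Figure D3:**
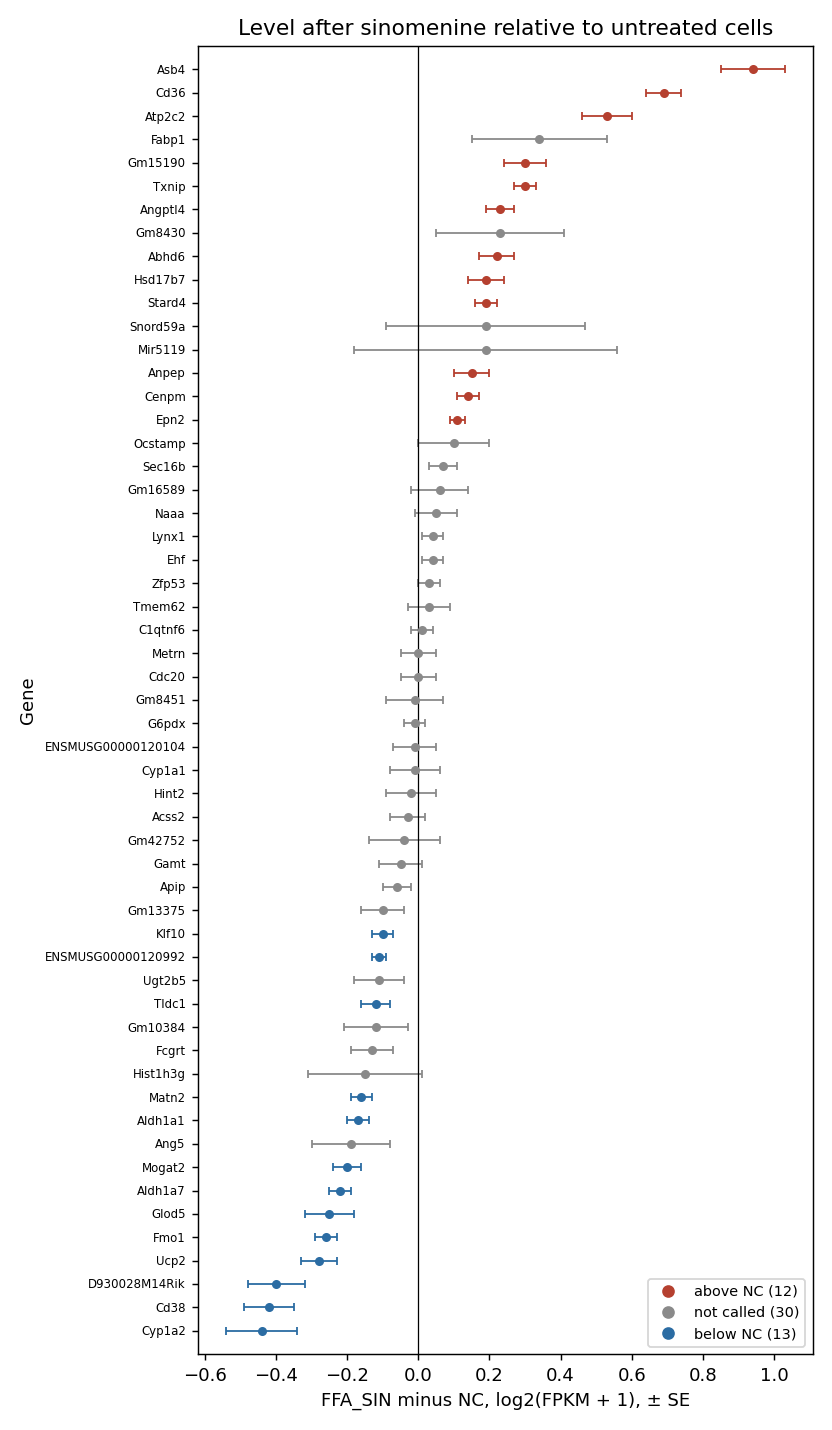
FFA_SIN minus NC in log2(FPKM + 1) with its standard error (x axis) for 55 of the 57 genes (y axis), from limma with 3 libraries a group. Red genes (12) were above NC at an adjusted p below 0.05, blue genes (13) below, and grey genes (30) did not pass; Asb4, Cd36 and Atp2c2 lie highest and Cyp1a2, Cd38 and D930028M14Rik lowest.

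Fabp1, the liver fatty acid binding protein, had the largest fold of FFA over NC among the lipid genes, on few reads. Its FPKM were 0.394, 0.307 and 0.449 in NC, 1.59, 1.69 and 2.99 in FFA, and 0.349, 1.12 and 0.861 in FFA_SIN. FFA replicate 3 was far above the other FFA libraries, and FFA_SIN replicate 1 fell within the NC range. These values correspond to about 10 to 16 reads per NC library, 38 to 112 per FFA library and 12 to 36 per FFA_SIN library. FFA_SIN against NC did not pass the test (0.34 ± 0.19, adjusted p = 0.174), but it did without FFA_SIN replicate 1 (0.52, adjusted p = 0.0401). Fabp1 passed the filter only through FFA, with a mean of 1.08 FPKM over the 9 libraries, and fell under it without FFA replicate 3.

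Cd36, the membrane receptor for fatty acid uptake, kept most of its FFA difference. The FPKM of Cd36 were 2.12, 1.94 and 1.88 in NC, 5.96, 5.37 and 5.67 in FFA, and 3.83, 3.98 and 3.65 in FFA_SIN. All FFA_SIN libraries lay between the other groups, and 40% of the difference was reversed. It remained 0.69 ± 0.05 above NC (adjusted p = 2.34e-06).

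Angptl4, which is secreted and blocks lipoprotein lipase, had a similar order of groups at smaller size. The FPKM of Angptl4 were 7.64, 7.83 and 7.29 in NC, 11.6, 11.3 and 11.3 in FFA, and 9.33, 8.46 and 9.41 in FFA_SIN. FFA_SIN again lay between NC and FFA with no overlap, 0.23 ± 0.04 above NC (adjusted p = 0.0014), with 57% reversed.

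Ucp2, a carrier of the inner mitochondrial membrane, ended below NC, unlike Cd36 and Angptl4. It was 1 of the 2 genes of the lipid group that did so, the other being Mogat2. The FPKM of Ucp2 were 9.37, 9.38 and 10.2 in NC, 15.1, 15.8 and 14.6 in FFA, and 7.46, 7.62 and 8.33 in FFA_SIN. Every FFA_SIN library was under every NC library. The reversal was 146% of the FFA difference, and FFA_SIN lay 0.28 ± 0.05 under NC (log2 difference -0.28, adjusted p = 0.0011).

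The list of fatty acid oxidation genes and PPAR alpha targets holds 4 of the 57 genes, among them Angptl4, Fabp1 and Ucp2. Counts for this and the lists that follow leave out the members of the 57, whose direction the choice fixed. Of the 33 other tested genes of the list, 21 rose and 2 fell in FFA against NC, when 19.1% of all tested genes rose and 18.4% fell. In FFA_SIN against FFA, 4 of the 33 rose and 10 fell, when 13.9% of all genes rose and 17.3% fell. In FFA_SIN against NC, 22 were higher and 2 lower, when 24.7% of all genes were higher and 26.5% lower. The median log2 difference of the whole list, members included, was 0.22 in FFA against NC, -0.06 in FFA_SIN against FFA and 0.16 in FFA_SIN against NC. Over all tested genes the median was 0.00 for FFA minus NC, 0.01 for FFA minus FFA_SIN and -0.01 for FFA_SIN minus NC. The list medians include the 4 chosen genes, whose direction was fixed in the first 2 comparisons, so they are a description only.

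A pair of enzymes of glyceride turnover was among the 57 genes. Abhd6, a monoacylglycerol lipase, had FPKM of 6.38, 5.82 and 6.47 in NC, 10, 10.6 and 9.36 in FFA, and 7.7, 7.02 and 7.6 in FFA_SIN, with no overlap of the groups. It stayed above NC with sinomenine (0.22 ± 0.05, adjusted p = 0.00587) after a reversal of 63%. Mogat2, a monoacylglycerol acyltransferase of triglyceride synthesis, was named after its values were seen. The FPKM of Mogat2 were 7.8, 8.55 and 8.23 in NC, 10.2, 9.85 and 9.88 in FFA, and 7.15, 6.74 and 7.09 in FFA_SIN. It ended below NC (-0.20 ± 0.04, adjusted p = 0.00137), with 178% reversed. FFA minus NC was 0.60 for Abhd6 and 0.26 for Mogat2, so the choice left Mogat2 almost no room above NC. That these enzymes lay on opposite sides of NC is therefore set in part by the choice and is a description only. Naaa, which hydrolyses N-acylethanolamines, and Acss2, which makes acetyl-CoA from acetate, were near the threshold. They did not differ from NC by the test in FFA_SIN (0.05 ± 0.06, adjusted p = 0.449, and -0.03 ± 0.05, adjusted p = 0.593). FFA minus NC was only 0.31 for Naaa and 0.26 for Acss2, so the choice left almost no room above NC. Acss2 was the single member of the 57 in the list of fatty acid and triglyceride synthesis, where 15 of the 21 others rose and 1 fell in FFA against NC, and 3 rose and 7 fell in FFA_SIN against FFA. Cd36 was likewise the single one in the list of lipid droplets, lipolysis and uptake, where 9 of the 17 others rose and 3 fell in FFA, and 8 rose and 2 fell with sinomenine. Of all tested genes, 19.1% rose and 18.4% fell in FFA against NC, and 13.9% rose and 17.3% fell in FFA_SIN against FFA. The 3 of 21 that rose with sinomenine and the 3 of 17 that fell in FFA were near these shares.

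Sterol genes were represented by Hsd17b7, which reduces a 3-keto group in cholesterol synthesis, and Stard4, which carries sterols between membranes. The FPKM of Hsd17b7 were 4.72, 5.44 and 4.89 in NC, 7.35, 7.62 and 7.13 in FFA, and 5.64, 5.8 and 6.08 in FFA_SIN. The FPKM of Stard4 were 18.7, 19.1 and 17.9 in NC, 26.6, 27 and 26.5 in FFA, and 21.2, 22.2 and 20.6 in FFA_SIN. In both genes the FFA_SIN libraries stood between the groups without overlap. Both stayed above NC by 0.19, with an SE of 0.05 for Hsd17b7 (adjusted p = 0.00927) and of 0.03 for Stard4 (adjusted p = 0.000974), and 61% and 62% of their FFA differences were reversed. Hsd17b7 was the only one of the 57 in the list of mevalonate and sterol synthesis. All 19 others rose in FFA against NC, and all 19 were above NC in FFA_SIN. In FFA_SIN against FFA, 6 of the 19 rose and 8 fell. Stard4 belongs to the list of SREBP control and LDL uptake, in which 5 of the 12 others rose and 2 fell in FFA, and 4 rose and 3 fell with sinomenine. Of all tested genes, 19.1% rose and 18.4% fell in FFA against NC, and 13.9% rose and 17.3% fell in FFA_SIN against FFA. In FFA_SIN against NC, 24.7% were higher and 26.5% lower. The 2 of 12 that fell in FFA were thus near the share of all genes.

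The promoters of Hsd17b7 and Ucp2 are shown because, among the 37 member windows searched, they hold the single E-box and the single sterol regulatory element. Each is the 250 bases before the RefSeq start in GRCm38.p6, 5′ to 3′ on the gene's strand. The Hsd17b7 window is chr1:169969206-169969455 on the minus strand and the Ucp2 window chr7:100493108-100493357 on the plus strand. Capitals mark matches on either strand to the E-box CACGTG, the sterol regulatory element TCACNCCAC and the FOXO site TGTTTAC. They also mark the box named for its letters CCAAT, and GCGTG, the core of the site bound by the aryl hydrocarbon receptor.
Hsd17b7: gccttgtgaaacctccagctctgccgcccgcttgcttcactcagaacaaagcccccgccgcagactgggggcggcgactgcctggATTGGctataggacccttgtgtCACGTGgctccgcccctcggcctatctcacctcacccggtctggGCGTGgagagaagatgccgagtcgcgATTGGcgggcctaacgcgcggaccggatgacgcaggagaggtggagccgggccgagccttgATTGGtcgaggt
Ucp2: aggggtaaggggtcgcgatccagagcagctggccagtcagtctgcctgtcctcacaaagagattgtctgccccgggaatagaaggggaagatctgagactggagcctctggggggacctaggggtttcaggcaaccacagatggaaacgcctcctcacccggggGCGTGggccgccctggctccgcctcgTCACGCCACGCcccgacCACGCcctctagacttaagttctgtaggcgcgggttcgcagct
The E-box of Hsd17b7 lies 143 to 138 bases before the start, among 3 CCAAT boxes read on the other strand. In Ucp2, the match TCACGCCAC lies 60 to 52 bases before the start and overlaps GCGTG read on the other strand and a match to the antioxidant response element (TGACNNNGC). A match describes letters and not a bound factor.

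Another 6 genes take part in the oxidation or conjugation of drugs and retinoids. Their mean FPKM with sinomenine were all under those of untreated cells, 4 of them by the test. With a median FFA minus NC of 0.36, the choice left the group limited room above NC, so this shared direction is a description only. Cyp1a1 and Cyp1a2, cytochrome P450 enzymes induced through the aryl hydrocarbon receptor, were low in all libraries. The FPKM of Cyp1a1 were 0.737, 1.09 and 0.841 in NC, 1.49, 1.52 and 1.52 in FFA, and 0.818, 0.861 and 0.91 in FFA_SIN. FFA_SIN lay inside the NC range and did not differ from NC by the test (-0.01 ± 0.07, adjusted p = 0.875). The FPKM of Cyp1a2 were 1.13, 1.49 and 1.55 in NC, 2.22, 2.25 and 1.81 in FFA, and 0.742, 0.6 and 0.946 in FFA_SIN. Here every FFA_SIN library was under every NC library, with 217% of the difference reversed and a level below NC (-0.44 ± 0.10, adjusted p = 0.00475). These levels correspond to 132 to 286 reads per library for Cyp1a1 and 70 to 247 for Cyp1a2.

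Both Cyp1a genes lie side by side on chromosome 9 of GRCm38, in opposite directions. Between their gene spans in GENCODE vM21 are 4.22 kb. Cyp1a2 is at chr9:57676937-57683703 on the minus strand and Cyp1a1 at chr9:57687928-57703824 on the plus strand. Their promoters are shown because the genes are neighbours. That both were higher in FFA than in NC was a condition of the choice. The Cyp1a1 window is chr9:57697363-57697612 on the plus strand and the Cyp1a2 window chr9:57683656-57683905 on the minus strand, from RefSeq in GRCm38.p6, with capitals as above. The Cyp1a1 window lies inside the GENCODE span of the gene, so the RefSeq starts are further apart than the spans.
Cyp1a1: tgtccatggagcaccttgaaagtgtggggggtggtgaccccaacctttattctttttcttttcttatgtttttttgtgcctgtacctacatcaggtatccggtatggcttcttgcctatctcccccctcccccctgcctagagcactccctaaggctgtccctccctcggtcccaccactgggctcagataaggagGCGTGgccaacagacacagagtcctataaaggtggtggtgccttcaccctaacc
Cyp1a2: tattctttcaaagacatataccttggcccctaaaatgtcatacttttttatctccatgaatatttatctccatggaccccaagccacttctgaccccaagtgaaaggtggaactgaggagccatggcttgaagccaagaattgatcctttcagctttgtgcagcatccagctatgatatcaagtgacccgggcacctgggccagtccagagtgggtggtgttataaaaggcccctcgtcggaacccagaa
The Cyp1a1 window holds 1 GCGTG, from 54 to 50 bases before the start, and the Cyp1a2 window holds no match to any capitalised motif. GCGTG was added to the search after the members were seen.

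**Figure D4:**
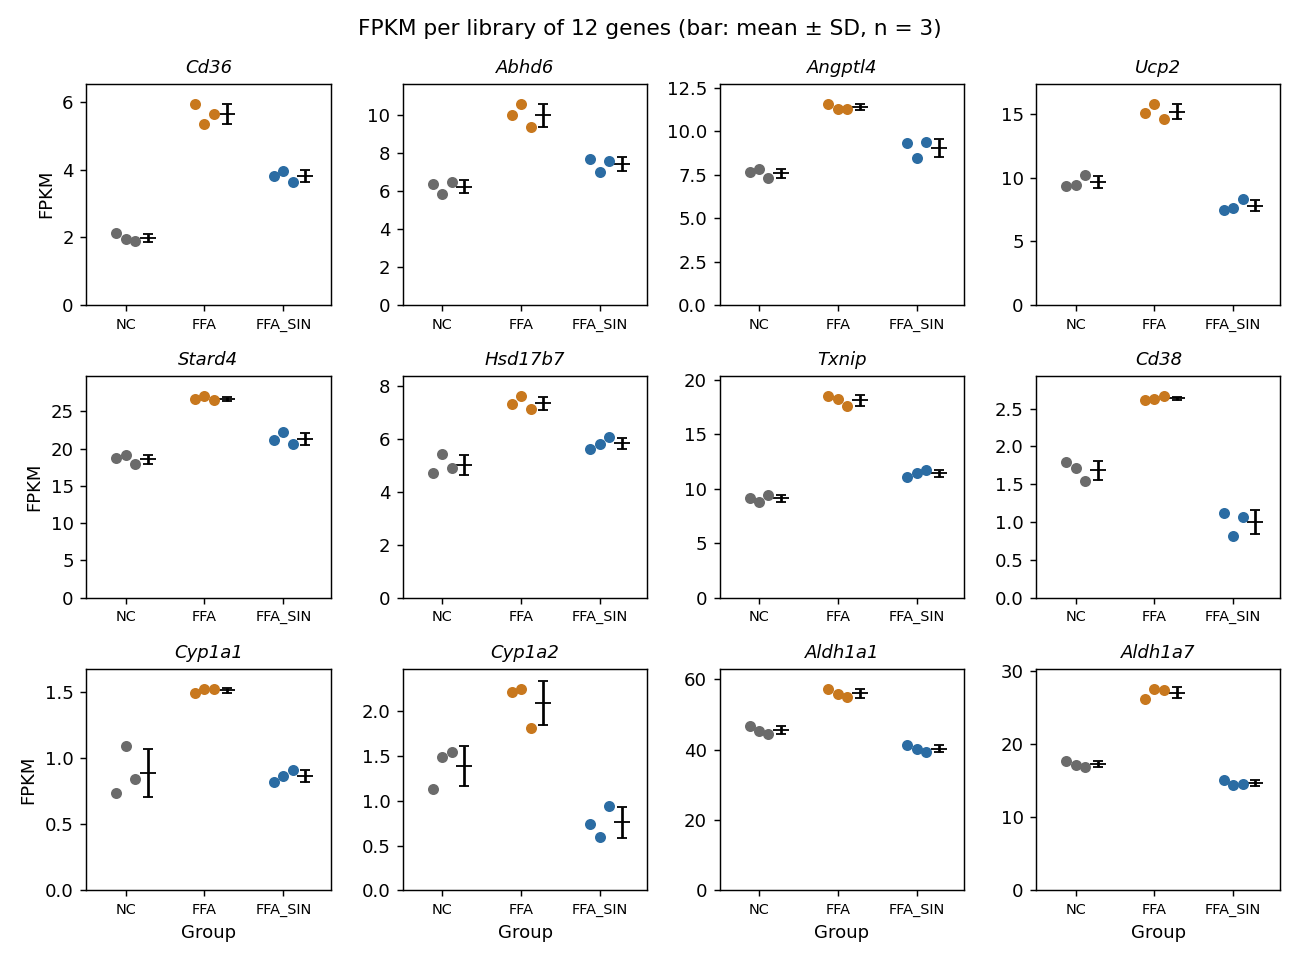
FPKM (y axis, from 0) of 12 of the genes in each of the 3 NC (grey), FFA (orange) and FFA_SIN (blue) libraries, with the mean ± SD of each group as a bar. FFA libraries are highest in every panel; FFA_SIN libraries lie between NC and FFA for Cd36, Abhd6, Angptl4, Stard4, Hsd17b7 and Txnip, and under NC for Ucp2, Cd38, Cyp1a2, Aldh1a1 and Aldh1a7.

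Aldh1a1, which oxidises retinaldehyde to retinoic acid, and its close paralogue Aldh1a7 lie 49.5 kb apart on chromosome 19. The FPKM of Aldh1a1 were 46.7, 45.4 and 44.4 in NC, 57.2, 55.8 and 54.9 in FFA, and 41.3, 40.2 and 39.3 in FFA_SIN. The FPKM of Aldh1a7 were 17.7, 17.1 and 16.9 in NC, 26.2, 27.5 and 27.4 in FFA, and 15.1, 14.4 and 14.5 in FFA_SIN. In both, the 3 groups were apart and FFA_SIN was lowest. They ended below NC (-0.17 ± 0.03, adjusted p = 0.000672, and -0.22 ± 0.03, adjusted p = 0.000204), with 159% and 136% reversed. Reads can be shared between such paralogues, so their separate values are uncertain.

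Fmo1, a flavin monooxygenase of drugs, was at 12.1, 12.5 and 11.8 FPKM in NC, 15.4, 15.2 and 15.8 in FFA, and 10.3, 9.99 and 9.64 in FFA_SIN. It too was under NC without overlap (-0.26 ± 0.03, adjusted p = 0.000108), and 178% of the difference was reversed. Ugt2b5, which conjugates glucuronic acid to drugs and steroids, had means of 9.45 ± 0.511 (SD, n = 3) in NC, 12.2 ± 0.88 in FFA and 8.71 ± 0.876 in FFA_SIN. Its FFA_SIN and NC libraries overlapped, and it did not pass the test (-0.11 ± 0.07, adjusted p = 0.232). In the list of xenobiotic and bile acid handling, which includes Cyp1a1, Cyp1a2 and Fmo1, 2 of the 18 others rose and 11 fell in FFA against NC, when 19.1% of all tested genes rose and 18.4% fell. In FFA_SIN, 4 of the 18 rose and 10 fell against FFA (13.9% and 17.3% of all genes), and 4 were higher and 12 lower than in NC (24.7% and 26.5% of all genes).

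Txnip, which binds thioredoxin and limits glucose uptake, had the largest smaller difference of the redox and metabolic group with at least 5 FPKM. The FPKM of Txnip were 9.19, 8.77 and 9.42 in NC, 18.5, 18.3 and 17.6 in FFA, and 11.1, 11.5 and 11.7 in FFA_SIN. FFA was 1.98-fold NC in mean FPKM, and the FFA_SIN libraries lay just above all NC libraries. Sinomenine went with a reversal of 68%, and the rest was above NC (0.30 ± 0.03, adjusted p = 7.78e-05). Txnip is the single one of the 57 in the list of fasting and FOXO targets, in which 3 of the 16 others rose and 4 fell in FFA, near the 19.1% and 18.4% of all genes, and 8 rose and 2 fell with sinomenine, against 13.9% and 17.3%. Its promoter, chr3:96557707-96557956 on the plus strand in GRCm38.p6 from RefSeq, is shown because it is 1 of the 3 member windows with a FOXO site, here GTAAACA from 121 to 115 bases before the start, between CCAAT boxes. Capitals are as above.
Txnip: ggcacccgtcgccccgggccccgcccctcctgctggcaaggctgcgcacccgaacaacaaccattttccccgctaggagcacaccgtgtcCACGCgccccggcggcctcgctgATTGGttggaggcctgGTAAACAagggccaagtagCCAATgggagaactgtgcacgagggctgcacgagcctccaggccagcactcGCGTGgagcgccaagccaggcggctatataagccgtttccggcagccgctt

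Cd38, an enzyme that consumes NAD, was among the lowest below NC. The FPKM of Cd38 were 1.79, 1.72 and 1.54 in NC, 2.61, 2.63 and 2.66 in FFA, and 1.12, 0.817 and 1.06 in FFA_SIN. All FFA_SIN libraries lay under NC, and 196% of the difference was reversed (FFA_SIN against NC -0.42 ± 0.07, adjusted p = 0.000536). G6pdx, which opens the pentose phosphate pathway and supplies NADPH, was at 24.3, 25.8 and 24.5 FPKM in NC, 30.7, 31.5 and 31.8 in FFA, and 24.2, 24.9 and 25 in FFA_SIN. Its FFA_SIN libraries overlapped NC (-0.01 ± 0.03, adjusted p = 0.815). In the list of NRF2 and antioxidant genes, which holds G6pdx and Aldh1a1, 6 of the 34 others rose and 17 fell in FFA, against 19.1% and 18.4% of all genes. With sinomenine, 8 of the 34 rose and 13 fell, against 13.9% and 17.3%. Glod5, a glyoxalase domain protein, ended below NC on 64 to 154 implied reads per library (-0.25 ± 0.07, adjusted p = 0.0103). Gamt, of creatine synthesis, Hint2, a mitochondrial nucleotide hydrolase, and Apip, of methionine salvage and named after its values were seen, did not pass the test against NC (-0.05, -0.02 and -0.06). FFA minus NC was 0.26, 0.25 and 0.26 in these genes, so the choice left them almost no room above NC.

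Of the 13 genes for membrane, transport and secreted proteins, 3 stayed above NC, 1 ended below and 9 did not pass, when 24.7% of all tested genes were above NC and 26.5% below. Atp2c2, a pump for calcium and manganese ions of the secretory pathway, kept most of its difference. The FPKM of Atp2c2 were 0.986, 0.928 and 0.992 in NC, 2.33, 2.92 and 2.48 in FFA, and 1.99, 1.74 and 1.81 in FFA_SIN. The 3 groups did not overlap, 38% was reversed, and FFA_SIN stayed above NC (0.53 ± 0.07, adjusted p = 0.00013). Its neighbour Tldc1, 2.36 kb away on chromosome 8 and named after its values were seen, ended below NC (-0.12 ± 0.04, adjusted p = 0.0269). FFA minus NC was 0.86 for Atp2c2 and 0.28 for Tldc1, so the choice left Tldc1 almost no room above NC. The contrast of these neighbours is a description only.

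Epn2, an adaptor of clathrin-mediated endocytosis, was the most abundant gene of this group. The FPKM of Epn2 were 44.5, 45.1 and 43.1 in NC, 61.1, 61.1 and 61.5 in FFA, and 47.8, 48.4 and 47.5 in FFA_SIN. The libraries within each group agreed closely, and FFA_SIN was slightly above NC without overlap (0.11 ± 0.02, adjusted p = 0.00168). Anpep, the membrane aminopeptidase N, was also above NC (0.15 ± 0.05, adjusted p = 0.0222). Matn2, a secreted matrix protein, was the one below NC, with FPKM of 11.4, 11.3 and 11.2 in NC, 14.2, 14.4 and 14.4 in FFA, and 9.82, 10.6 and 9.66 in FFA_SIN (-0.16 ± 0.03, adjusted p = 0.00362).

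Fcgrt, the neonatal Fc receptor that recycles albumin and immunoglobulin G, had means of 5.43 ± 0.483 FPKM (SD, n = 3) in NC, 6.88 ± 0.384 in FFA and 4.88 ± 0.104 in FFA_SIN. Sec16b, which organises exit sites of the endoplasmic reticulum, had 5.46 ± 0.183, 7.55 ± 0.154 and 5.79 ± 0.332. C1qtnf6, a secreted relative of adiponectin, had 28.1 ± 0.646, 35.9 ± 1.28 and 28.3 ± 0.243. In these 3 genes NC and FFA_SIN libraries overlapped, and FFA_SIN against NC did not pass the test (adjusted p = 0.0925, 0.177 and 0.847).

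Among regulators, Asb4, a SOCS box protein thought to act in ubiquitin ligation, had the lowest share reversed of all 57 genes. The FPKM of Asb4 were 0.214, 0.229 and 0.288 in NC, 2.29, 2.05 and 2.01 in FFA, and 1.44, 1.65 and 1.09 in FFA_SIN. The mean was 8.68-fold higher in FFA than in NC, and FFA_SIN libraries lay far above NC, with 29% reversed (FFA_SIN against NC 0.94 ± 0.09, adjusted p = 1.85e-05). Behind the NC values stood 53 to 73 implied reads per library, against 305 to 534 in the other groups. Like Fabp1, Asb4 passed the filter only through FFA.

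Klf10, a zinc finger factor induced by transforming growth factor beta, ended slightly below NC. Its FPKM were 11.4, 11.1 and 10.9 in NC, 14, 13.8 and 14.2 in FFA, and 10.4, 10.1 and 10.5 in FFA_SIN, all FFA_SIN libraries being under NC (-0.10 ± 0.03, adjusted p = 0.00872). Klf10 belongs to the list of growth factor signalling and immediate early genes. By limma at the threshold used, 21 of the 23 others fell in FFA against NC and 0 rose, when 18.4% of all tested genes fell and 19.1% rose. In FFA_SIN against FFA, 5 of the 23 rose and 7 fell (13.9% and 17.3% of all genes). In FFA_SIN, 3 were higher and 17 lower than in NC (24.7% and 26.5% of all genes). Ehf, an epithelial ETS factor, was at 34.6 ± 0.386 FPKM (SD, n = 3) in NC, 43.8 ± 0.955 in FFA and 35.6 ± 0.913 in FFA_SIN, with no call against NC (0.04 ± 0.03, adjusted p = 0.241).

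Cenpm, a centromere protein, was at 14.9, 15.1 and 15.1 FPKM in NC, 22, 22.5 and 22.8 in FFA, and 16.1, 17.6 and 16.5 in FFA_SIN. It stayed above NC (0.14 ± 0.03, adjusted p = 0.00498). Cdc20, an activator of the anaphase-promoting complex, had 23.1 ± 1.52 FPKM (SD, n = 3) in NC, 28.2 ± 1.36 in FFA and 23.1 ± 0.623 in FFA_SIN, with overlap of NC and FFA_SIN (adjusted p = 0.993). In the list of cell cycle and DNA replication, of which Cdc20 is the single one among the 57, 12 of the 38 others rose and 14 fell in FFA, against 19.1% and 18.4% of all genes. With sinomenine, 2 of the 38 rose and 15 fell, against 13.9% and 17.3%. The histone gene Hist1h3g, named after its values were seen, rests on 17 to 79 implied reads per library and belongs to a family of near-identical genes, so its values are uncertain.

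A further 12 of the 57 genes are noncoding RNAs, pseudogenes or predicted genes, or have no name in the annotation used, and they were named after their values were seen. Gm8430 had the largest smaller difference of all 57 genes. The FPKM of Gm8430 were 10.8, 17.1 and 11 in NC, 41.3, 38.9 and 27.5 in FFA, and 14.5, 16.2 and 14.4 in FFA_SIN. NC replicate 2 was above every FFA_SIN library, and the libraries of NC and of FFA varied more than for other genes at this level. FFA_SIN against NC did not pass the test (0.23 ± 0.18, adjusted p = 0.325). Predicted genes of this kind can share reads with other copies, which was not tested. The short RNAs Mir5119 and Snord59a rest on 0 to 12 and 1 to 13 implied reads per library, too few to read a difference between libraries, and FPKM of total RNA does not measure a mature miRNA. ENSMUSG00000120992, an identifier with no name in the annotation used, was the most abundant of the 57, at 376 ± 2.02 FPKM (SD, n = 3) in NC, 456 ± 1.09 in FFA and 349 ± 3.24 in FFA_SIN, and ended below NC (-0.11 ± 0.02, adjusted p = 0.000415).

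The 55 genes with a place in the reference annotation were spread over 18 chromosomes. Among them were 4 pairs within 250 kb of each other in GRCm38 with no other tested gene between: Cyp1a2 with Cyp1a1, Aldh1a1 with Aldh1a7, Atp2c2 with Tldc1, and Apip with Ehf. The count of neighbours among other tested genes was not taken. Of these 55 genes, 81.8% were protein coding, against 88.5% of all tested genes, 7.27% were pseudogenes against 6.41%, and 10.9% were noncoding against 5.13%. The median total exon length was 3065 bases against 4029, and the median of the mean FPKM was 5.73 against 8.15.

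RefSeq promoter windows, the 250 bases before a start in GRCm38.p6, were found for 33 of the 57 symbols (37 windows) and for 8451 tested symbols (10789 windows). The CCAAT box was in 48.6% of member windows and 35.6% of tested windows, the GC box GGGCGG in 54.1% and 58.4%, and GCGTG in 40.5% and 45%. The antioxidant response element TGACNNNGC was in 10 member windows (27%) against 11.9%, among them those of G6pdx, Acss2, Fabp1, Fcgrt and Ucp2. The FOXO site TGTTTAC was in 3 (8.11%) against 2.36%, namely Txnip, Fcgrt and Sec16b. The E-box CACGTG was in 1 (2.7%) against 8.39%, and the sterol regulatory element TCACNCCAC in 1 (2.7%) against 1.09%. Neither AGGTCANAGGTCA, the direct repeat bound by PPAR alpha, nor TTGCATCA, the CARE motif, was in a member window, where 0.0278% and 0.538% of tested windows hold them. Both strands were searched, and the GC content of member windows had a median of 56% against 60%. With so few windows these shares are a description only, and a site further from the start was not looked for.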

How the data were processed

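RNA from 9 libraries of AML12 cells (3 groups of 3) was examined. Per the labels' protocols, extraction used the mirVana kit, and the libraries were of the type TruSeq Stranded Total. Per the submitters' processing notes, reads were handled with Trimmomatic and HISAT2 and the build was GRCm39. Tool versions, the counter, the annotation and whether strand was used were not given in the sources used here. The deposited table gives FPKM per gene, a unit inferred from its values. With the exon lengths of GENCODE vM21 (GRCm38), 16481 of 17589 genes (93.7%) with low values had them at whole reads within 0.05, which also gave the implied depths. These reads were not tested with a count model. Identical libraries were looked for, and 0 pairs were found.

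The 11659 genes whose mean over all libraries reached 1 FPKM were fitted as log2(FPKM + 1). The tool was limma 3.58.1 (R 4.3.3), with 1 coefficient per group and a trend of the variance on the level, over all 9 libraries together. Two-sided p-values were adjusted (Benjamini-Hochberg) over all tested genes within each of 3 comparisons, with a threshold of 0.05. The design foresaw a count test in case of counts, which was not needed. All 3 comparisons share libraries, so their values are given side by side. The fit and the choice of members were tested on simulated data.

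The members, the 24 gene lists and the role groups were chosen with earlier results of these data known. Genes were named by rule: the 20 members of at least 5 FPKM in FFA with the largest smaller difference, up to 5 per list, the 5 highest above and the 5 lowest below NC, and the 5 on each side of the threshold. Others are marked as named after their values were seen. A few genes are left out of the text and are unnamed in the plots. Symbols were matched for 28734 of 30350 genes, and promoter sequences came from RefSeq (GRCm38.p6). Alternatives were another pseudocount, other filters, median-of-ratios scaling, other rule thresholds, a replicate block, no variance trend, NC and FFA_SIN alone, and leaving out each library. Other software was numpy 2.4.6, pandas 2.3.3 and matplotlib 3.10.9 under Python 3.11.15.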

Additional observations from a re-analysis of the deposited data

How the results depend on the processing

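The number of genes chosen depended on the rule's own settings. It was 57 as reported, 86 with a pseudocount of 0.1, 30 with a filter of at least 5 FPKM, 184 with a rule difference of 0.15 and 10 with 0.5. At 0.15, 41 genes were above NC in FFA_SIN and 33 below, with a median share reversed of 0.95. At 0.5 these were 2, 3 and 0.81. Median-of-ratios scaling gave 55 genes and no filter 77. Leaving out each library in turn gave 61 to 78 genes, 12 to 16 above NC, 11 to 15 below NC, and a median share of 0.94 to 1.05. With a library fewer, the condition of no overlap is easier to meet. The genes themselves also changed, with 7 to 26 added and 1 to 7 of the 57 lost. With a replicate block, 13 were above NC and 13 below, as without it, and it changed no call among 20 named genes. Same-numbered libraries correlated at -0.01 to 0.17, so the numbers were not taken to pair them. For these 20 genes, 311 of 312 alternative values kept their call in FFA_SIN against NC. The exception was Fabp1 without FFA_SIN replicate 1 (0.52). Without FFA replicate 3 Fabp1 fell under the filter and gave no value. Among genes under 5 FPKM, depth limits what can be read, and intervals here cover the spread between libraries only.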

Other observations

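The genes in these paragraphs were picked after the values were seen. Ahr, the receptor through which Cyp1a1 and Cyp1a2 are induced, was highest in FFA_SIN. Its FPKM were 5.01, 5.28 and 5.16 in NC, 6.29, 6.1 and 6.1 in FFA, and 8.08, 7.93 and 7.52 in FFA_SIN, so it rose in FFA against NC (0.22 ± 0.03, limma, adjusted p = 0.000766) and again in FFA_SIN against FFA (0.30 ± 0.03, adjusted p = 0.000119). Tiparp, another gene induced through that receptor, was at 3.74, 4.23 and 3.84 FPKM in NC, 4.47, 4.12 and 4.52 in FFA, and 5.41, 5.45 and 4.87 in FFA_SIN. It did not pass the test in FFA against NC (0.12 ± 0.05, adjusted p = 0.101) and rose with sinomenine (0.22 ± 0.05, adjusted p = 0.0126). Aldh3a1, an aldehyde dehydrogenase also inducible that way, fell in both steps, from 95.5, 96.7 and 101 FPKM in NC to 54.8, 56.1 and 57.3 in FFA and 21.7, 20.3 and 22.4 in FFA_SIN (-0.79 ± 0.04, adjusted p = 4.88e-07, then -1.35 ± 0.04, adjusted p = 2.59e-08). Cyp1b1, a further gene inducible that way, was under the filter and not tested, at 0.0986, 0.143 and 0.154 FPKM in NC, 0.174, 0.189 and 0.152 in FFA, and 0.135, 0.103 and 0.173 in FFA_SIN, with overlapping groups. Arnt, the partner of the receptor, passed in neither step (-0.02 ± 0.03, adjusted p = 0.552, and -0.08 ± 0.03, adjusted p = 0.063). It was, however, lower in FFA_SIN than in NC (-0.10 ± 0.03, adjusted p = 0.0136). Since Cyp1a1 and Cyp1a2 were chosen for being highest in FFA, a difference between their order and that of these genes says nothing further.

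Among the 29 genes that joined with a pseudocount of 0.1 were Elovl6, a fatty acid elongase, with FPKM of 5.88, 6.58 and 6.45 in NC, 9.22, 9.07 and 9.75 in FFA, and 7.77, 7.96 and 7.63 in FFA_SIN, and Cenpf, a kinetochore protein, with 2.84, 2.91 and 2.85, then 3.7, 3.55 and 3.74, then 3.03, 3.12 and 2.97.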
